A study of Homo sapiens with 96 samples.

Results

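ARNTL (also BMAL1), ARNTL2 (also BMAL2), CLOCK and NPAS2 are the activators of the circadian clock, and their total RNA and ribosome footprints were followed through 1 day in knockdown and wild-type cells. The members were the rows of these 4 gene symbols, out of 19438 genes in each deposited table, and all 4 were found in all 96 libraries. The cells were U2-OS, a human osteosarcoma line, here carrying a luciferase gene under a Per2 promoter. Knockdown cells were seeded at 0.56 M per plate (M, 1e+06) and transfected with 120 pmol of a mix of 5 siRNAs against Bmal1, the product of ARNTL, with Lipofectamine RNAiMAX. Wild-type cells were seeded at 2.25 M per plate and received no siRNA, and the labels name no control siRNA, so transfection, seeding density and ARNTL loss cannot be told apart. Both treatments were synchronised with 0.1 µM dexamethasone, a glucocorticoid that resets the clock of cultured cells, and treated for 3 min with 100 µg/mL cycloheximide, which stalls ribosomes on mRNA. Collection started 24.5 h after synchronisation and went on every 2 h over 24 h, at circadian times labelled CT00 to CT22, with 2 replicates at each time. Each treatment therefore had 24 libraries of ribosome footprints, the mRNA fragments covered by ribosomes, and 24 of total RNA.

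The activators are transcription factors of the bHLH-PAS family that work as pairs. ARNTL or its paralogue ARNTL2 binds CLOCK or NPAS2, and the pair binds E-box sequences and switches on, among others, the PER, CRY and NR1D genes. PER and CRY proteins then inhibit the pair, while the NR1D receptors repress and the ROR receptors activate ARNTL itself through shared response elements, which makes ARNTL the member with the best known daily rhythm. NPAS2 carries response elements of the same kind in mouse and human and can stand in for CLOCK in mouse tissues.

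Because ARNTL was both the target of the siRNAs and the most strongly rhythmic activator, its promoter is shown, read from RefSeq on GRCh38.p14, whereas the counts were made on GRCh37. Capitals mark matches to TAGGTNA, a shortened form of the response element that ROR and NR1D receptors share. The window ran from 250 bases before the annotated start to its first base, at chr11:13277540-13277790 on the plus strand, and the second stretch, at chr11:13277812-13277837, lay just past the start, in the transcribed region.
ARNTL upstream: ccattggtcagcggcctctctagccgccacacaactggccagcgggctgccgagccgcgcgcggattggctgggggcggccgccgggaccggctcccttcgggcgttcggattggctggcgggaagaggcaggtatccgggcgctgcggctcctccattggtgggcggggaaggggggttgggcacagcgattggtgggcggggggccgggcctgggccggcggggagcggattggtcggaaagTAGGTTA
ARNTL downstream: gcagaaagTAGGTCAgggacggaggt
The first match, TAGGTTA, began 6 bases before the start, and the second, TAGGTCA, began at base 31 of the transcript. Searched on both strands, TAGGTNA occurred in 6.52% of the 35116 RefSeq windows of 300 bases and TAGGTCA, which TAGGTNA includes, in 1.85%. The other 5 windows of the 4 activators, 1 of them an alternative start of ARNTL, held neither. None of the 6 windows held the E-box CACGTG, found in 7.26% of all windows, or the D-box TTATGTAA, found in 0.886%. The upstream stretch also held 6 CCAAT boxes, all as ATTGG on the plus strand, and a CCAAT box occurred in 34.6% of all windows. These matches are letters in a window and were not measured as binding.

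All 4 genes had reads in every total RNA library, and ARNTL had very few in knockdown footprints. Footprint libraries held 2.50 to 5.82 M reads (median 3.67), and 46 of 48 total RNA libraries held 13.6 to 20.1 M (median 16.3 over all 48). Replicate 2 of knockdown total RNA was much shallower at CT14 (2.66 M) and at CT18 (2.56 M), with 9 and 17 ARNTL reads and 36 NPAS2 reads in each. In bulk samples, fewer cells of a type and less RNA per cell cannot be told apart. The mesenchymal and bone genes VIM, SPARC, COL1A1 and RUNX2 were expressed in both treatments, although COL1A2 was near 0 in total RNA, at 0.145 CPM in knockdown cells against 0.0990 CPM in wild-type cells (CPM, counts per M reads). ALPL, a bone phosphatase, averaged 11.4 CPM in knockdown and 4.09 CPM in wild-type total RNA, and RUNX2 averaged 10.5 and 15.5 CPM. Of the 4 blood markers in total RNA, CD3E and HBB were at or near 0 in both treatments, and PTPRC averaged 0.227 CPM in knockdown cells and 0.298 CPM in wild-type cells. CD68, in contrast, averaged 12.8 CPM in knockdown cells and 2.09 CPM in wild-type cells. The summed blood markers in total RNA, made up mostly of CD68, ranged from 9.84 to 17.6 CPM in knockdown libraries and from 1.57 to 3.38 CPM in wild-type libraries. The 4 epithelial and 4 neuronal markers had sums that overlapped there (7.67 to 15.3 CPM in knockdown against 7.35 to 23.7 CPM in wild-type libraries, and 8.81 to 20.2 CPM against 9.56 to 14.9 CPM). Within these sums CDH1 (3.88 and 1.64 CPM in knockdown and wild-type cells) and SYT1 (7.23 and 1.80 CPM) averaged higher in knockdown cells. EPCAM (2.01 and 3.93 CPM), SNAP25 (3.70 and 6.00 CPM) and RBFOX3 (2.55 and 3.97 CPM) averaged lower, as did KRT14, CLDN4 and GFAP. In footprints the neuronal sum was lower in all knockdown libraries, at 23.2 to 38.0 CPM against 44.5 to 63.3 CPM in wild-type libraries, with RBFOX3 at 21.6 and 43.8 CPM. SNAP25 was lower there too (3.90 and 6.85 CPM), as was GFAP at levels near 0, whereas SYT1 was higher (4.04 and 0.647 CPM). The part of these markers in the results below was not tested. The labels do not state whether the 2 replicates of a time were grown apart, so all p-values measure the spread between these libraries, which may be technical.

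ARNTL, the siRNA target and the usual partner of CLOCK, was lost almost completely from ribosomes and largely from total RNA. In footprints, its lowest, median and highest values were 0, 0.689 and 1.97 CPM in knockdown libraries and 6.48, 19.4 and 28.2 CPM in wild-type libraries. In total RNA they were 3.36, 4.75 and 6.49 CPM in knockdown libraries and 14.3, 32.7 and 47.9 CPM in wild-type libraries. All 24 knockdown libraries lay below all 24 wild-type libraries in both assays. The knockdown footprints rested on 54 reads in all, 0 to 6 per library with 3 libraries at 0, against 1846 reads in wild-type footprints. Pooled over libraries, that is 0.653 CPM (exact Poisson 95% interval 0.490 to 0.852, counting error only) in knockdown cells against 18.7 CPM (17.9 to 19.6) in wild-type cells.

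The ARNTL that remained also gave fewer footprints per total RNA. The knockdown effect, taken as the difference of knockdown from wild-type in log2(CPM + 0.25) at each time and averaged over the 12 times, was -4.44 ± 0.17 (SE; limma, Benjamini-Hochberg adjusted p = 3.88e-25) in footprints, against -2.60 ± 0.05 (adjusted p = 7.68e-29) in total RNA. The difference of the 2 effects was -1.84 ± 0.18 (95% interval -2.20 to -1.48, adjusted p = 3.47e-12). In CPM, knockdown kept 3.52% of the wild-type mean in footprints, against 14.9% in total RNA. Pooled footprint CPM came to 13.6% of pooled total RNA CPM in knockdown cells and to 57.6% in wild-type cells. Because knockdown footprints are so few, the size of this difference depends on the pseudocount: it was -1.07 with a pseudocount of 1 and -2.19 in edgeR, both past the threshold of an adjusted p of 0.05. All differences below are on this log2 scale, ± SE. ARNTL was lower at all 12 times in both assays, from -5.50 at CT00 to -2.87 at CT06 in footprints and from -3.14 at CT20 to -1.66 at CT06 in total RNA. The time of the smallest difference falls in the hours of lowest wild-type ARNTL. It was also the time of the highest knockdown means, 1.28 CPM in footprints, where 1 library held 6 reads, and 5.38 CPM in total RNA.

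**Figure D1:**
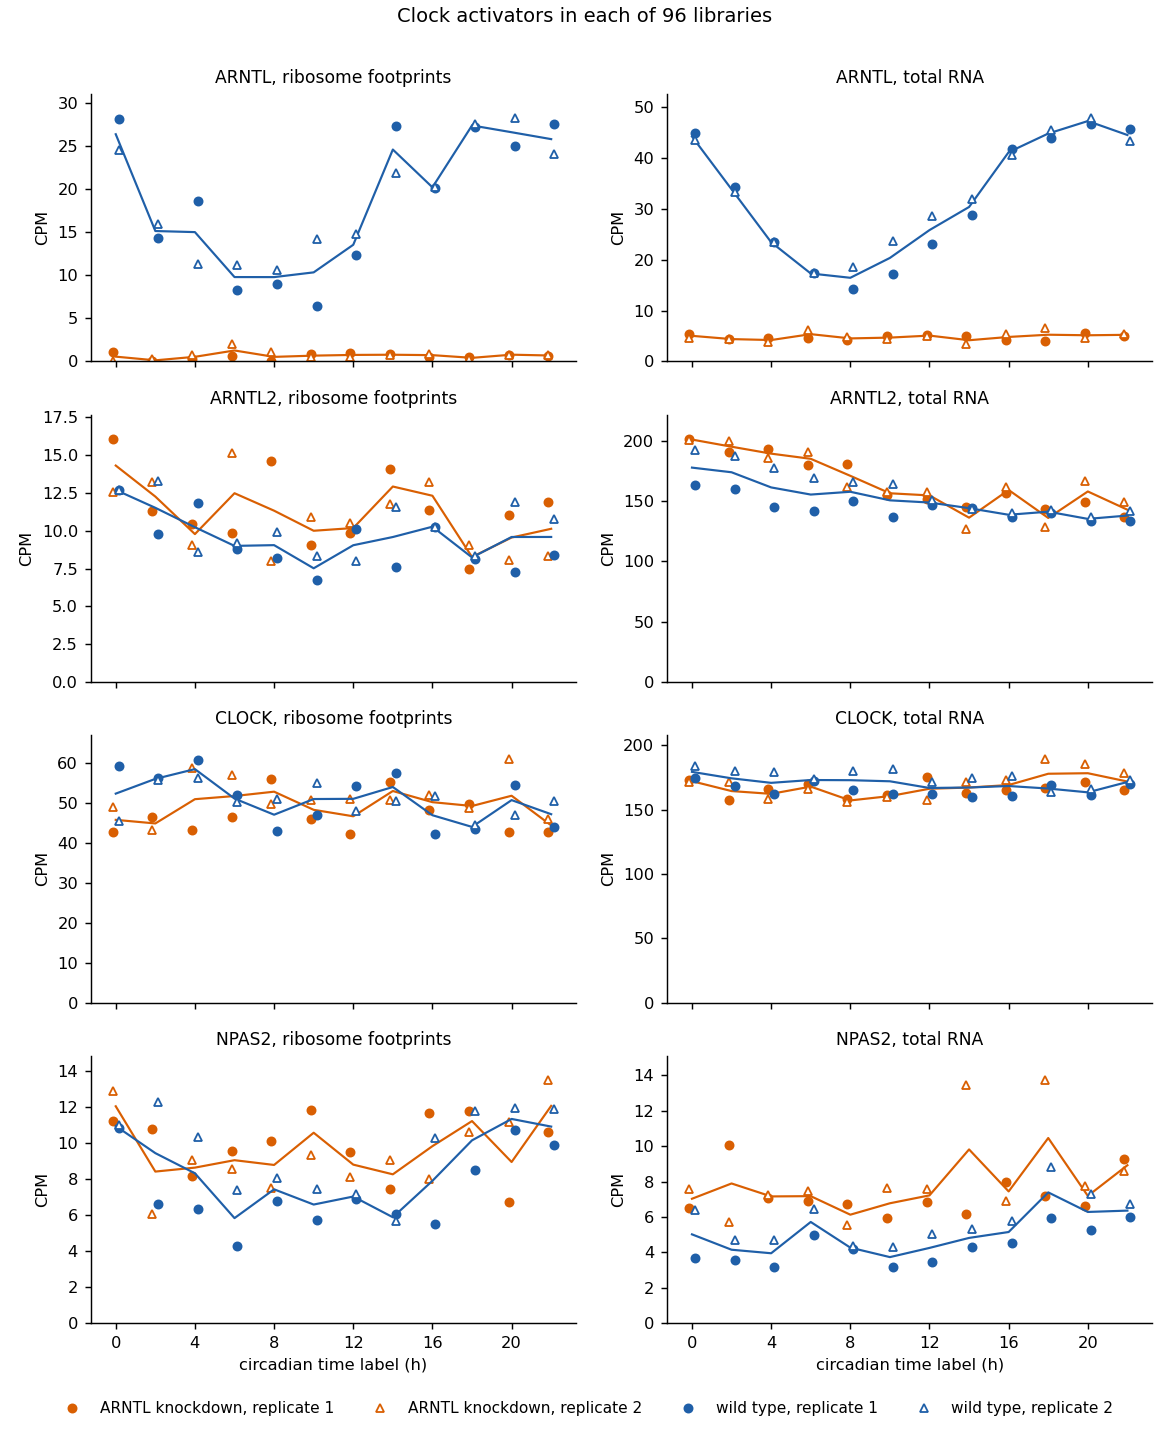
CPM of the 4 activators (rows) in ribosome footprints (left) and total RNA (right) against circadian time label in h, with 1 point per library (filled circles, replicate 1; open triangles, replicate 2) and lines through the mean of 2. ARNTL is low and flat in knockdown cells (orange) and swings 2.82-fold in total RNA of wild-type cells (blue), while the NPAS2 total RNA of every knockdown library lies above the wild-type median.

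ARNTL2, the paralogue that can take the place of ARNTL in the pair, was slightly higher in knockdown cells. In total RNA its lowest, median and highest values were 127, 159 and 201 CPM in knockdown libraries and 133, 145 and 192 CPM in wild-type libraries. In footprints they were 7.48, 11.0 and 16.1 CPM in knockdown libraries and 6.73, 9.49 and 13.3 CPM in wild-type libraries. The groups overlapped in both assays, with 4 of 24 knockdown libraries above every wild-type library in each. ARNTL2 rose by 0.12 ± 0.03 in total RNA (limma, adjusted p = 0.000378, higher at 10 of 12 times) and by 0.19 ± 0.08 in footprints (adjusted p = 0.0364, higher at 10 of 12 times). Replicate numbers did not pair knockdown with wild-type libraries, so a replicate series taken alone sets unmatched libraries against each other. The rise passed with the replicate 1 libraries. With these alone it was 0.18 in total RNA (adjusted p = 0.000169) and 0.31 in footprints (adjusted p = 0.0158), and with the replicate 2 libraries alone 0.05 (adjusted p = 0.246) and 0.07 (adjusted p = 0.610). The wild-type replicates differed more than the knockdown replicates here, since replicate 2 was the higher of the wild-type pair at 11 of 12 times in total RNA, with means of 159.3 ± 19.4 and 144.3 ± 9.57 CPM (SD, n = 12 each) in replicates 2 and 1, and the knockdown means were 165.4 ± 24.6 and 165.1 ± 22.4 CPM. When each replicate series was first averaged over time, so that 2 means stood against 2, neither rise passed (adjusted p = 0.123 in total RNA and 0.147 in footprints).

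CLOCK, the usual partner and a histone acetyltransferase, did not pass the test in either assay. In total RNA its lowest, median and highest values were 156, 167 and 189 CPM in knockdown libraries and 160, 171 and 184 CPM in wild-type libraries. In footprints they were 42.2, 48.8 and 60.9 CPM in knockdown libraries and 42.2, 50.7 and 60.8 CPM in wild-type libraries. The ranges overlapped almost wholly. The total RNA difference was -0.02 ± 0.02 (95% interval -0.07 to 0.02, limma adjusted p = 0.317), and the footprint difference was -0.05 ± 0.05 (-0.14 to 0.05, adjusted p = 0.347). In total RNA, replicate 2 was the higher at 11 of 12 times in wild-type cells (means of 175.3 and 165.6 CPM in replicates 2 and 1) and at 6 of 12 in knockdown cells. With each replicate series first averaged over time, the SE was wider, at -0.02 ± 0.05 in total RNA and -0.05 ± 0.07 in footprints. CLOCK was well counted in total RNA, with 61369 reads over the knockdown libraries and 66980 over the wild-type libraries.

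NPAS2, the alternative partner to CLOCK, rose in knockdown total RNA. Its lowest, median and highest values there were 5.52, 7.21 and 13.7 CPM in knockdown libraries and 3.14, 4.85 and 8.85 CPM in wild-type libraries. Every knockdown library lay above the wild-type median, 4 lay above every wild-type library, and the knockdown mean was higher at 12 of 12 times, by 0.20 at CT20 to 0.90 at CT14, a time with a shallow library. The rise was 0.59 ± 0.09 (95% interval 0.41 to 0.78, limma adjusted p = 4.43e-07), with a knockdown mean of 153% of the wild-type mean in CPM. The 2 highest knockdown values, 13.5 and 13.7 CPM, came from the 2 shallow libraries, with 36 reads each. Without these libraries the rise was 0.51 (adjusted p = 5.32e-07), and the other 22 libraries averaged 7.24 ± 1.08 CPM. The rise passed in either replicate series alone, at 0.71 with replicate 1 and 0.47 with replicate 2. When each series was first averaged over time, so that 2 means stood against 2, it was 0.59 ± 0.15 and passed less clearly (limma, adjusted p = 0.0151).

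NPAS2 footprints rose by less, and in 1 replicate series. Their lowest, median and highest values were 6.07, 9.51 and 13.5 CPM in knockdown libraries and 4.28, 7.74 and 12.3 CPM in wild-type libraries. The rise was 0.22 ± 0.09 (limma, adjusted p = 0.0299, higher at 10 of 12 times), and the groups overlapped, with 2 of 24 knockdown libraries above every wild-type library. It was seen with the replicate 1 libraries, at 0.45 (adjusted p = 0.00399) with these alone and at -0.01 (adjusted p = 0.947) with replicate 2 alone. As with ARNTL2, the wild-type replicates stood apart: replicate 2 was the higher at 11 of 12 times in footprints, with means of 9.60 ± 2.31 and 7.35 ± 2.15 CPM (SD, n = 12 each) in replicates 2 and 1, against knockdown means of 9.48 ± 2.19 and 9.94 ± 1.72 CPM. In total RNA the wild-type replicate 2 was the higher of the pair at 12 of 12 times (5.82 ± 1.37 and 4.35 ± 1.01 CPM), and knockdown replicates averaged 8.26 ± 2.63 and 7.27 ± 1.24 CPM. The footprint effect minus the RNA effect was -0.37 ± 0.13 (adjusted p = 0.0244). It did not pass without the 2 shallow libraries (-0.29, adjusted p = 0.0746), with replicate 1 alone (-0.26, adjusted p = 0.193) or with the authors' own scaling (-0.27, adjusted p = 0.0870).

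**Figure D2:**
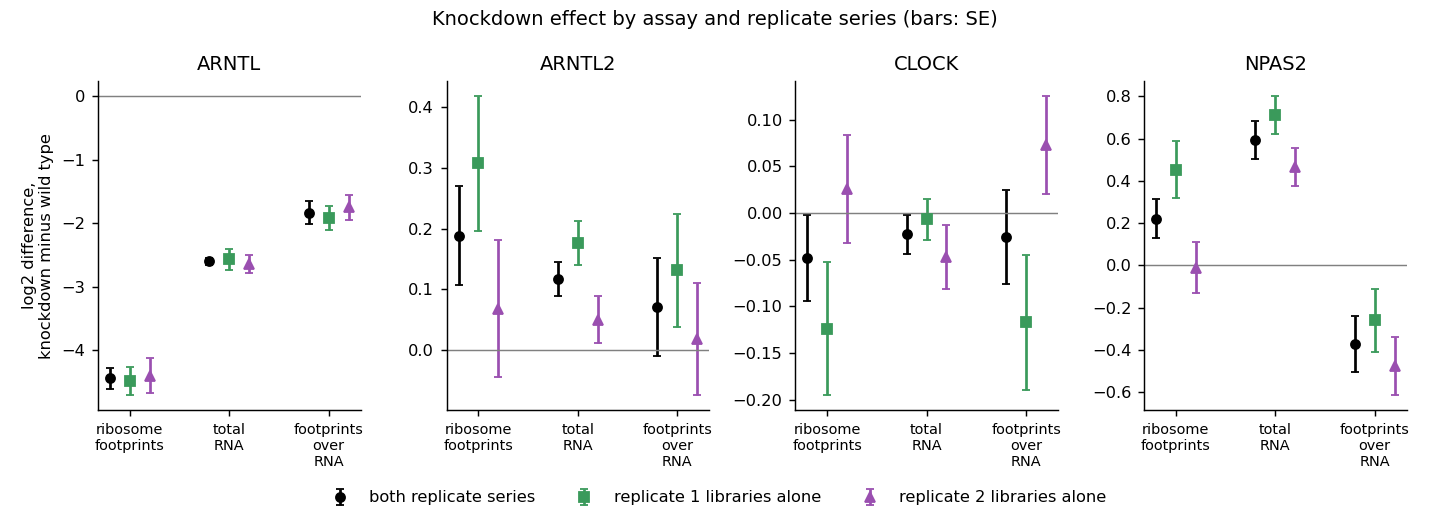
Knockdown minus wild-type differences in log2(CPM + 0.25), mean over 12 times with SE bars, for footprints, total RNA and the difference of the 2 assays, with both replicate series (black circles), replicate 1 alone (green squares) and replicate 2 alone (purple triangles); the panels have their own scales. ARNTL lies at -4.44, -2.60 and -1.84 with both series and close by with either alone, while the small ARNTL2 and NPAS2 footprint rises lie near 0 in replicate 2.

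In all, 3 of the 4 activators passed in total RNA, where 81.7% of 13188 genes did, and 3 of 4 in footprints, where 75.5% of 11189 did, so that passing sets none of them apart in a data set in which most genes differed between treatments. For size, the ARNTL difference was larger than 99.6% of genes in total RNA, NPAS2 than 80.3%, ARNTL2 than 25.2% and CLOCK than 5.00%. For the footprint effect minus the RNA effect, 2 of 4 were lower, against 18% of 11149 genes, and 0 were higher, against 13.1%. With the deposited scaling the share of higher calls was 80.4% in place of 42.1% there and 61.4% in place of 49.5% in footprints. ARNTL2 (0.07 ± 0.08, adjusted p = 0.544) and CLOCK (-0.03 ± 0.05, adjusted p = 0.742) did not pass there in limma.

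The activators differed widely in how many footprints they gave per total RNA. The log2 ratio of footprint to total RNA CPM in libraries of the same time and replicate was -3.88 ± 0.29 in knockdown and -3.95 ± 0.25 in wild-type cells for ARNTL2 (SD, n = 24 each). That placed ARNTL2 at the 0.404 and 0.296 percentile of 11149 genes, whose median was -0.07 in both treatments. CLOCK, at -1.77 ± 0.18 in knockdown and -1.75 ± 0.16 in wild-type cells, lay at the 7.75 and 7.33 percentile. NPAS2 had the opposite place, above the median of all genes, at 0.32 ± 0.35 in knockdown and 0.70 ± 0.38 in wild-type cells, the 65.9 and 80.6 percentile. ARNTL lay at -2.65 ± 0.76 (2.10 percentile) in knockdown and -0.81 ± 0.27 (24.3 percentile) in wild-type cells. As a share, pooled ARNTL2 footprint CPM came to 6.73% of its total RNA CPM in knockdown cells and 6.38% in wild-type cells, on 917 and 954 footprint reads. NPAS2 footprint CPM came to 125% and 167% of its total RNA CPM. No transcript lengths were used, and footprints cover coding sequence while total RNA can cover untranslated regions and introns too, so places between genes depend on gene structure. The 2 treatments of 1 gene share that structure, but the parts of the RNA that gave the total RNA reads could still differ between them. For ARNTL, the siRNA target, as for the others, this was not tested.

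**Figure D3:**
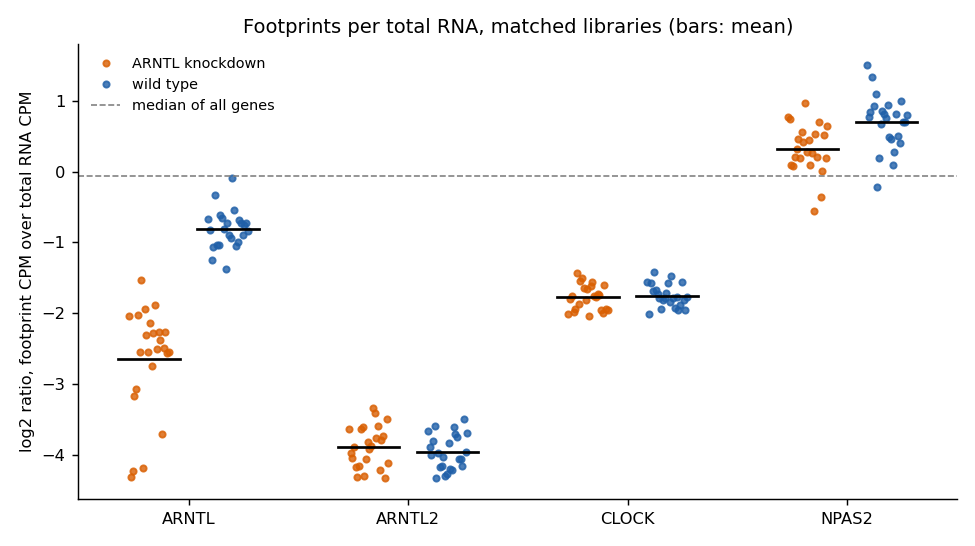
Log2 ratio of footprint CPM to total RNA CPM for each of 24 pairs of libraries per treatment (knockdown, orange, left; wild-type, blue, right), with black bars at the mean and a dashed line at the median of all genes (-0.07). Knockdown lies below wild-type for ARNTL, and ARNTL2 lies near -3.9 in both treatments.

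Whether reads were counted by strand is not stated, and the members share their place with other genes in RefSeq. ARNTL2 overlaps BMAL2-AS1 and SMCO2, CLOCK overlaps TMEM165, NPAS2 overlaps NPAS2-AS1, and ARNTL and CLOCK contain small pseudogenes or non-coding RNAs. Reads from these could not be told apart from those of the members, and all values of ARNTL, ARNTL2, CLOCK and NPAS2 are uncertain to that extent. That includes the low ARNTL total RNA left in knockdown cells.

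In wild-type cells ARNTL kept a strong daily rhythm in RNA and on ribosomes, and none passed in knockdown total RNA. Total RNA of wild-type cells averaged 44.3, 33.9, 23.5, 17.3, 16.5 and 20.4 CPM from CT00 to CT10 and 25.9, 30.4, 41.2, 44.9, 47.3 and 44.6 CPM from CT12 to CT22. The highest time, CT20, had both libraries (46.8 and 47.9 CPM) above those of its neighbours, whereas CT18, CT22 and CT00 overlapped one another, as did the 2 lowest times, CT06 and CT08. Footprints of wild-type cells ran from 9.79 CPM at CT06 and CT08 to 27.4 CPM at CT18, with CT18 to CT00 overlapping. The fitted 24-h amplitude, the distance from the mean to the peak in log2, was 0.77 ± 0.08 in footprints (limma F test, adjusted p = 4.52e-06, peak at CT 19.7 ± 0.4 h), against 0.75 ± 0.04 in total RNA (adjusted p = 2.69e-11, peak at CT 20.0 ± 0.2 h). These are peak-to-trough folds of 2.91 and 2.82. The ratio of footprints to RNA had no rhythm past the threshold for ARNTL in wild-type cells (amplitude 0.05 ± 0.10, adjusted p = 1.00).

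In knockdown cells the ARNTL total RNA stayed between 4.18 and 5.38 CPM as means of 2, with an amplitude of 0.06 ± 0.06 (limma, adjusted p = 0.728). The change of rhythm, the length of the vector from the wild-type to the knockdown cosine and sine terms, was 0.69 ± 0.07 in total RNA (adjusted p = 8.32e-08). It passed with either replicate series alone (adjusted p = 1.46e-05 with replicate 1 and 0.0152 with replicate 2) and with a linear drift in the fit (5.08e-08). Knockdown footprints of ARNTL, at 0 to 6 reads, fell below the filter on low counts, so their own rhythm was not tested. The change of rhythm in footprints was 0.85 ± 0.23 (adjusted p = 0.0552), and it passed with a pseudocount of 1 (0.78, adjusted p = 0.00210) and with the replicate as a block (adjusted p = 0.0415).

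NPAS2 was the other activator with a rhythm in both assays of wild-type cells, of smaller size. Its total RNA means ran from 3.73 CPM at CT10 to 7.39 CPM at CT18, and its footprint means from 5.83 CPM at CT06 to 11.3 CPM at CT20. The amplitude was 0.41 ± 0.09 in footprints (limma, adjusted p = 0.0155, peak at CT 21.9 ± 0.9 h), against 0.30 ± 0.08 in total RNA (adjusted p = 0.0348, peak at CT 19.6 ± 1.1 h). In knockdown cells the amplitude was 0.12 ± 0.08 in footprints (adjusted p = 0.530) and 0.17 ± 0.08 in total RNA (adjusted p = 0.229), and neither passed. The change between treatments did not pass either, at 0.29 ± 0.13 in footprints (adjusted p = 0.328) and 0.13 ± 0.12 in total RNA (adjusted p = 0.727), so a difference in rhythm between knockdown and wild-type cells was not shown. The wild-type rhythm of NPAS2 in footprints missed the threshold with replicate 1 alone (adjusted p = 0.163) and with replicate 2 alone (0.0513), and in total RNA with replicate 1 alone (0.133). With a linear drift in the fit it missed the threshold in footprints (limma, adjusted p = 0.401) and in total RNA (0.933). The footprint amplitude was then 0.40 ± 0.10 (unadjusted p = 0.000736), in a fit where 7 of 10736 genes passed. In total RNA it fell to 0.19 ± 0.09.

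ARNTL2 total RNA fell through the day in both treatments, which a 24-h wave fits but cannot separate from a trend within 1 day. Its means were 200.8 CPM at CT00 and 142.7 CPM at CT22 in knockdown cells, and 177.6 CPM at CT00 and 137.9 CPM at CT22 in wild-type cells. The amplitude was 0.22 ± 0.03 in knockdown cells (limma, adjusted p = 7.44e-05, peak at CT 3.6 ± 0.6 h) and 0.12 ± 0.03 in wild-type cells (adjusted p = 0.0211, peak at CT 4.2 ± 1.0 h). With a linear drift in the fit neither passed (adjusted p = 0.112 in knockdown cells and 1.00 in wild-type cells), and the wild-type peak moved to CT 21.9. The wild-type amplitude was 0.19 with replicate 2 alone and 0.06 with replicate 1 alone, where it did not pass (adjusted p = 0.314). The change between treatments did not pass (0.09 ± 0.05, adjusted p = 0.383). ARNTL2 footprints passed for a rhythm in neither treatment (adjusted p = 0.827 in knockdown and 0.371 in wild-type cells).

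CLOCK was the flattest activator in wild-type cells. Its total RNA means stayed between 163 CPM at CT20 and 179 CPM at CT00, with an amplitude of 0.03 ± 0.02 (limma, adjusted p = 0.491). In knockdown cells a small wave of 0.07 ± 0.02 passed (adjusted p = 0.0289, peak at CT 19.7 ± 1.1 h), from 157 CPM at CT08 to 178 CPM at CT20. That wave did not pass with replicate 1 alone (0.01, adjusted p = 0.902) or with a linear drift (adjusted p = 0.233). The change between treatments was 0.09 ± 0.03 (adjusted p = 0.0509), and it passed with the replicate as a block (adjusted p = 0.0141) and with replicate 2 alone (0.14, adjusted p = 0.0332). CLOCK footprints had amplitudes of 0.06 ± 0.04 in knockdown cells (adjusted p = 0.559) and 0.09 ± 0.04 in wild-type cells (adjusted p = 0.448).

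**Figure D4:**
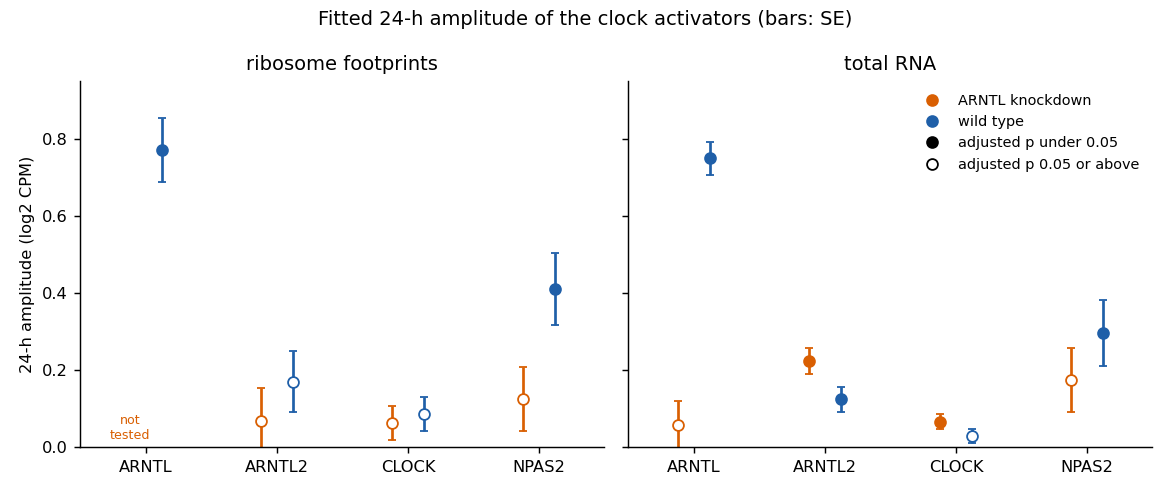
Fitted 24-h amplitude in log2 CPM with SE bars for the 4 activators in footprints (left) and total RNA (right), knockdown (orange) left of wild-type (blue); filled points have an adjusted p under 0.05. ARNTL reaches 0.77 and 0.75 in wild-type cells and 0.06 in knockdown total RNA, and its knockdown footprints were too few to test.

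In wild-type cells a rhythm passed for 2 of 4 activators in footprints, where 7.01% of genes did, and for 3 of 4 in total RNA, where 22.5% did. With a linear drift in the fit 1 of 4, ARNTL, passed in each assay, against 0.0652% of genes in footprints and 0.197% in total RNA. In wild-type total RNA the replicate numbers paired the libraries, and with the replicate as a block 4830 in place of 2855 genes passed, with the same 3 activators. In knockdown cells 0 of the 3 activators tested passed in footprints, against 18.2% of genes, with 0 also at an unadjusted p under 0.05, in edgeR and in limma-voom, and 2 of 4 passed in total RNA, against 33.9%. A change of rhythm passed for 0 of 4 in footprints, against 3.85% of genes, with 1 (ARNTL) at an unadjusted p under 0.05 and 0 in edgeR and limma-voom, and for 1 of 4 in total RNA, against 10.9%. With the replicate as a block a change passed for 1 of 4 in footprints (ARNTL), against 6.55% of genes in that fit. In total RNA it passed for 2 of 4 (ARNTL and CLOCK), against 18.5%. A rhythm of footprints per RNA in wild-type cells passed for 0 of 4, with 0 at an unadjusted p under 0.05, in edgeR and in limma-voom, where 0.0748% of genes passed in limma (8 genes, and 57 with the replicate block).

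The genes whose daily course was most like that of each activator were taken by Pearson r over the 12 time means of wild-type total RNA, among 11952 genes. For ARNTL they were VGLL3, a transcription cofactor (r = 0.96), PLAT, tissue plasminogen activator (0.94), and PDLIM5, a scaffold of the actin cytoskeleton (0.92), with r of 0.83, 0.85 and 0.64 in wild-type footprints. For ARNTL2 they were SLC39A8, a metal ion transporter (0.99), IDH3A, a subunit of the citric acid cycle enzyme isocitrate dehydrogenase (0.99), and NAA50, an N-terminal acetyltransferase (0.98), with 0.53, 0.49 and 0.60 in footprints. For CLOCK they were MOCS2, PLD5 and RIF1 (0.95, 0.93 and 0.93, with 0.39, 0.55 and 0.26 in footprints). For NPAS2 they were ZNF217 (0.91, with -0.02 in footprints), RFTN1 (0.90, with 0.35) and TMOD2 (0.87). The courses of the ARNTL neighbours held up in the second assay better than those of NPAS2 in these 12 points. Among the activators, ARNTL and NPAS2 ran together (r = 0.67 in footprints and 0.59 in total RNA), as did ARNTL2 and CLOCK in total RNA (0.83, with 0.40 in footprints). ARNTL ran opposite to PER2, a repressor of the pair, with r of -0.89 in footprints and -0.92 in total RNA. With the other repressors compared it was weaker, in the same order of assays: -0.64 and -0.56 for NR1D2, -0.52 and -0.57 for CRY1, and 0.15 and 0.09 for NR1D1. These values describe 12 means from the same libraries and were not tested.

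The genes around the activators in the loop were counted by role. Of the 10 feedback repressors, 9 were tested, and 4 were higher (PER2, CRY1, CRY2 and BHLHE40) and 4 lower (PER3, NR1D1, NR1D2 and BHLHE41) in knockdown total RNA, where 41.8% of all genes were higher and 39.9% lower. Their median difference was 0.02, against 0.01 over all genes. NR1D2, a direct target of the pair that represses ARNTL, averaged 10.8 CPM in knockdown and 85.3 CPM in wild-type footprints, and fell by 2.92 ± 0.06 there (limma, adjusted p = 2.02e-35). NR1D1, its sister receptor, fell by 1.67 ± 0.09 in footprints (adjusted p = 1.53e-19), against a fall by 0.71 ± 0.14 in total RNA (adjusted p = 2.66e-05) that did not pass with replicate 2 alone (adjusted p = 0.173). Since its gene lies opposite to THRA, its values are uncertain. CRY2 rose by 1.59 ± 0.06 in footprints (adjusted p = 3.66e-25), PER2 by 1.06 ± 0.09 (adjusted p = 1.03e-12) and BHLHE40, which competes for E-boxes, by 1.09 ± 0.05 (adjusted p = 8.28e-21). In footprints 3 repressors were higher and 5 lower of 9, where 37.4% of genes were higher and 38.1% lower.

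Of the ROR receptors, which activate ARNTL, RORB was higher and RORA lower in knockdown total RNA, and RORA did not pass in footprints. Over all genes 41.8% were higher and 39.9% lower in total RNA, and 37.4% higher and 38.1% lower in footprints. Of the 4 D-box factors, NFIL3 was higher and DBP, an E-box target, lower in total RNA, and likewise among the 3 tested in footprints, where DBP fell by 1.48 ± 0.10 (limma, adjusted p = 6.75e-17). Among 12 relatives of the bHLH-PAS family, which share the dimerisation domain of the activators, 8 were tested in total RNA, with 1 higher (NPAS1) and 4 lower (ARNT, ARNT2, AHR and HIF1A), where 41.8% of all genes were higher and 39.9% lower. AHR, the dioxin receptor, fell by 0.92 ± 0.10 (adjusted p = 3.51e-10) from low levels, 0.563 CPM in knockdown and 1.25 CPM in wild-type cells.

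Of the 16 cofactors of the activators, 5 were higher and 8 lower in knockdown total RNA (median -0.12), where 41.8% of all genes were higher and 39.9% lower. In footprints 3 were higher and 10 lower of 15 (median -0.23, against -0.01 over all genes), where 37.4% of genes were higher and 38.1% lower. In footprints, SIRT1, a deacetylase that associates with CLOCK, fell by 0.51 ± 0.04 (limma, adjusted p = 6.78e-14), NCOR1, the corepressor of the NR1D receptors, by 0.46 ± 0.04 (adjusted p = 1.23e-13) and PARP1, which modifies CLOCK in mouse, by 0.45 ± 0.02 (adjusted p = 2.07e-20). RACK1, a ribosome-bound scaffold reported to bind BMAL1 in mouse, was the 1 cofactor of 15 tested with a rhythm of footprints per RNA in wild-type cells (amplitude 0.24 ± 0.04, adjusted p = 0.0224), but no gene passed in that test without replicate 2. Of 16 clock kinases and ubiquitin ligases, 14 were tested, with 5 higher and 4 lower in total RNA and 5 higher and 5 lower in footprints, against the same shares of all genes. BTRC, a ligase subunit that marks PER proteins for breakdown, rose by 0.80 ± 0.05 in footprints (adjusted p = 7.92e-19), and the kinase PRKCA fell by 0.46 ± 0.03 (adjusted p = 9.28e-17).

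**Figure D5:**
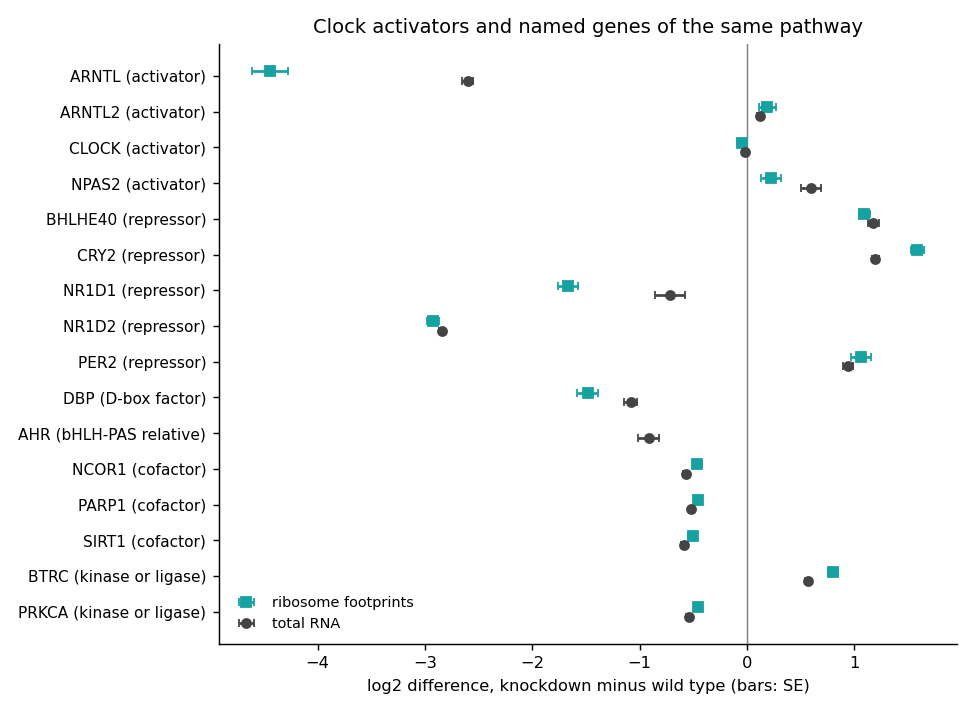
Knockdown minus wild-type differences in log2(CPM + 0.25) with SE bars for the 4 activators and the 12 named genes of the same pathway, in footprints (teal squares) and total RNA (grey circles). ARNTL and NR1D2 have the largest falls, CLOCK lies next to 0, and AHR was not tested in footprints.

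Rhythms of these neighbours were read in wild-type total RNA, where 8 of 9 repressors passed, as did 1 of 2 ROR receptors, 2 of 3 D-box factors, 1 of 7 bHLH-PAS relatives, 6 of 15 cofactors and 1 of 14 kinases and ligases, against 22.5% of all genes. NR1D2 had an amplitude of 0.50 ± 0.03 (limma, adjusted p = 8.01e-10, peak at CT 4.3) and PER2 of 0.77 ± 0.08 (adjusted p = 5.65e-06, peak at CT 9.2), while ARNTL peaked at CT 20.0. A change of rhythm with knockdown passed for 8 of 9 repressors, 1 of 2 ROR receptors, 3 of 4 D-box factors, 0 of 8 bHLH-PAS relatives, 2 of 16 cofactors (SIRT1 and CIPC) and 0 of 14 kinases and ligases, against 10.9% of all genes.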

How the data were processed

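Whole-gene values came from 8 deposited tables, 1 per treatment, assay and replicate, with treatment, assay and replicate taken from the labels' titles. Reads were aligned with STAR 2.3.0e, counted with HTSeq 0.5.4p1 and normalised with DESeq2 (version not given) on GRCh37 (hg19), per the submitters' processing notes, and the strand setting and annotation are not given in the sources used here. The values as deposited by the authors are a signal: counts per gene over a size factor of the library. Whole reads could be recovered, since 100% of the values were multiples of the library's smallest step (tolerance 0.001 read), and differences of scaling between tables were removed. The tests were limma-trend (limma 3.58.1, R 4.3.3, robust) on log2(CPM + 0.25) with TMM scaling within each assay (edgeR 4.0.16), genes kept by filterByExpr at a minimum count of 10, and Benjamini-Hochberg adjustment over all genes tested, with a threshold of 0.05. Adjusted p-values are limma's where no other tool is given.

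The knockdown effect averaged 12 times, rhythms were tested jointly (F) on cosine and sine terms with a 24 h period, and changes of rhythm or of footprints per RNA were interactions. Fits were tested first on simulated data, with independent libraries and no difference between replicate series. Those runs could not check p-values where libraries pair by replicate number. Members, gene lists and tests were chosen with earlier results of these data known. Named genes were the 4 members, the 3 genes most like each, up to 4 genes a list past the threshold with a difference of at least 0.5 in total RNA, and NR1D1 and NR1D2; genes named beside counts of 5 or fewer, RACK1 among them, were chosen after their values were seen. CIART, CIPC and RACK1 were matched through older symbols. Promoters are RefSeq, GRCh38.p14.

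Replicate numbers paired the wild-type total RNA libraries across times (66 pairs, r 0.36 to 0.62) and wild-type footprints with total RNA (12 pairs, 0.21 to 0.42). Wild-type footprints across times gave a median r of 0.25 (66 pairs, -0.09 to 0.49), and knockdown numbers did not pair (lowest r -0.24). Replicates of a group differed by more than counting noise (chi-square per degree of freedom 1.40 to 10.8). Alternatives were another scaling (the deposited one and the median-ratio one), a pseudocount of 1, no filter, edgeR's quasi-likelihood test, limma-voom, DESeq2 1.42.0, a replicate block, each replicate left out, series means, a linear drift and leaving out the 2 shallow libraries. On the recovered reads edgeR called 8465 genes for the knockdown effect in footprints and 10852 in total RNA. With 1 replicate series alone, the knockdown fits took time and treatment as additive, so a treatment effect that varies over the day counted as spread.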

Additional observations from a re-analysis of the deposited data

Results flagged for a closer look

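Effects that differed between assays or treatments by a test of the difference itself (limma interactions) were the following. The knockdown effect in footprints minus that in total RNA was -1.84 for ARNTL and -0.37 for NPAS2; among the pathway genes it was -0.96 for NR1D1, -0.40 for DBP, 0.39 for CRY2, 0.23 for BTRC and 0.071 for PARP1. The change of rhythm between knockdown and wild-type total RNA was 0.69 for ARNTL, and 0.96 for NR1D1, 0.79 for PER2, 0.39 for CRY2, 0.30 for NR1D2, 0.29 for BHLHE40 and 0.16 for SIRT1. In footprints it was 0.79 for PER2, 0.71 for NR1D1 and 0.38 for CRY2. With replicate 2 alone the NR1D1 change in footprints did not pass (0.53, adjusted p = 0.195). The NR1D1 and NR1D2 changes in total RNA did not pass with replicate 2 alone (1.04, adjusted p = 0.0995, and 0.23, adjusted p = 0.127). Groups of 2 libraries were too small to mark single outlying libraries.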

How the results depend on the processing

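Over the 4 activators and 10 tests, 387 of 414 alternative values kept their side of the threshold, 21 lost a call, 4 gained one and 2 that had been called reversed. Rhythm values are amplitudes and cannot be negative, so a sign could change only in the knockdown effects. A rhythm that passed in neither fit was counted as kept even where its peak moved. One such case was NPAS2 in knockdown footprints, at CT 20.7 with both replicates and CT 6.8 with replicate 1 alone. Among knockdown effects that kept their side, the 4 sign changes were all of CLOCK, which passed in none of them. They were 0.049 in footprints and 0.075 in footprints per RNA with the deposited scaling, and 0.026 and 0.073 with replicate 2 alone, against -0.048 and -0.026. Reversed were NPAS2 in footprints with replicate 2 alone (-0.010) and the wild-type ARNTL2 RNA wave with a linear drift (0.028, peak at CT 21.9). Calls were lost with series means for ARNTL2 in total RNA (0.12) and footprints (0.19), for NPAS2 in footprints (0.22) and in footprints per RNA (-0.37), and for NR1D1 in footprints per RNA (-0.96). With DESeq2, ARNTL2 (0.19) and NPAS2 (0.22) missed in footprints. NPAS2 in footprints per RNA missed with the deposited scaling (-0.27) and without the 2 shallow libraries (-0.29). Without a filter, the wild-type NPAS2 RNA rhythm missed (0.30, adjusted p = 0.0513). With a linear drift, rhythms missed for NPAS2 in wild-type total RNA (0.19) and footprints (0.40), for ARNTL2 (0.10) and CLOCK (0.064) in knockdown total RNA, and for NR1D2 in wild-type footprints (0.52) and knockdown total RNA (0.09). Calls were gained for a rhythm change of CLOCK RNA with the replicate block (0.088) and with replicate 2 alone (0.14), of ARNTL footprints with the replicate block (0.85) and with a pseudocount of 1 (0.78).

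With each replicate left out in turn, genes passing numbered 1622 to 2693 (24-h rhythm, wild-type, total RNA), 141 to 497 (24-h rhythm, wild-type, footprints), 1197 to 1957 (24-h rhythm, knockdown, total RNA), 460 to 796 (24-h rhythm, knockdown, footprints), 408 to 961 (rhythm change, total RNA), 86 to 135 (rhythm change, footprints), 0 to 26 (rhythm of efficiency, wild-type). Values ranged, by test, as follows. Knockdown effect, total RNA, 0.050 to 0.18 for ARNTL2. Knockdown effect, footprints, 0.068 to 0.31 for ARNTL2 and -0.010 to 0.45 for NPAS2. Knockdown effect, efficiency, -0.48 to -0.26 for NPAS2. 24-h rhythm, wild-type, total RNA, 0.061 to 0.19 for ARNTL2 and 0.27 to 0.33 for NPAS2. 24-h rhythm, wild-type, footprints, 0.41 to 0.43 for NPAS2. 24-h rhythm, knockdown, total RNA, 0.014 to 0.11 for CLOCK. Rhythm change, total RNA, 0.035 to 0.14 for CLOCK.

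Counts of genes moved by over 1.5 times as follows. With series means 178 genes passed in footprints per RNA, against 3465. With the replicate block 4830 passed in wild-type total RNA rhythms, 1337 in wild-type footprints, 2436 and 733 in rhythm changes of RNA and footprints, and 57 in the rhythm of footprints per RNA. Among the activators, NR1D1 and NR1D2 the block changed no call other than the gains given above. The other named pathway genes were refitted with the block only for the knockdown effects in total RNA and footprints, and it changed no call there. With a linear drift the counts were 25 and 7 in wild-type RNA and footprints, 588 and 262 in knockdown RNA and footprints, 154 and 68 in changes, and 0 in footprints per RNA, which had 15 with the deposited scaling and 3 without a filter. The deposited scaling moved the median of all genes to 0.09, against -0.01, in footprints per RNA. The cause of these moves was not tested. Replicate numbers paired wild-type total RNA libraries across times and wild-type footprints with total RNA. Wild-type footprint libraries were less alike across times, with a median r of 0.25 (-0.09 to 0.49). In the pairings that held knockdown libraries the median r was 0.12 or less.

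Depth limits ARNTL in knockdown footprints, where a floor of 3 reads exceeds the median of 2 reads, and NPAS2, at 14 to 60 footprint reads per wild-type library. Over a single day, the total RNA waves of NPAS2, ARNTL2 and CLOCK could not be told apart from trends. The wild-type NPAS2 footprint wave kept its size with a linear drift in the fit (0.40, against 0.41) but did not pass. That of wild-type ARNTL passed with a linear drift in the fit, at 0.89 in footprints and 0.86 in total RNA.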
